A study of Homo sapiens with 9 samples.

Results

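Cal-27 cells given exosomes of cancer-associated fibroblasts (CAF exosomes) were compared directly with Cal-27 cells given exosomes labelled hOMF, to ask what distinguishes the response to exosomes of tumour fibroblasts from the response to other exosomes. Of the 9 sequenced libraries, 6 enter this comparison, 3 with CAF exosomes and 3 with hOMF exosomes. The other 3 are control libraries, used to set the level without exosomes and to add to the estimate of the spread. All 12470 genes with enough counts for a test, of 16366 listed, were compared, and no gene was chosen by its value for the comparison itself.

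Cal-27 is a human line of tongue squamous carcinoma cells, labelled wild type, and was kept in DMEM rich in glucose with bovine serum. The 2 exosome groups had been co-cultured with their exosomes for 48 h, and the labels describe the control group no further. The cells are 1 line, the donors of the fibroblasts and the exosome dose are not stated, and hOMF is not spelled out. The labels call the libraries replicate samples without naming separate cultures, and p-values therefore reflect the spread among these libraries alone, which may be technical. Because bulk RNA was sequenced, fewer cells of a kind and less RNA per cell cannot be told apart.

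Exosomes are vesicles of endosomal origin that are shed by most cells, and a recipient cell that takes them up receives their RNA, lipids and proteins. Fibroblasts in carcinomas differ from those of healthy tissue in the matrix, growth factors and cytokines they make, and their vesicles are studied as one route by which they act on epithelial tumour cells. Squamous carcinoma cells keep many epithelial features, among them gap junctions built of connexins, keratins and a large output of chemokines.

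Expected counts summed to between 11185672 and 12779101 per library. The exosome libraries lay as close to each other across the groups as within them. The root mean square distance in log2 CPM (counts scaled to a common library size) between a CAF and an hOMF library was 0.258 to 0.324, against 0.268 to 0.325 among CAF libraries and 0.256 to 0.303 among hOMF libraries. Distances to control were 0.366 to 0.465 for CAF and 0.374 to 0.477 for hOMF libraries. In a principal component analysis of the 6 exosome libraries the first component, with 28.2% of the variance, did not follow the groups. The second, with 23.3%, placed the CAF libraries at -13.3, -10.7 and -4.72 and the hOMF libraries at 7.01, 8.22 and 13.5.

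Few genes differed between the 2 kinds of exosomes by more than the spread between libraries. GJB2, which encodes a connexin of epithelial gap junctions, was higher with CAF exosomes, and ZNF114, which encodes a zinc finger protein, was lower. No other gene passed a Benjamini-Hochberg adjusted p of 0.05 in edgeR's quasi-likelihood test, so 2 of 12470 genes were called (0.0160%), 1 higher (0.00802%) and 1 lower (0.00802%). Against control the same fit called 2264 genes (18.2%) for CAF exosomes and 2896 (23.2%) for hOMF exosomes. An adjusted p under 0.1 was reached by 10 genes (0.0802%), and an unadjusted p under 0.05 by 947 (7.59%), with 527 estimates above 0 (4.23%) and 420 below (3.37%). DESeq2 called 32 genes, with 644 at an unadjusted p under 0.05.

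Sizes were small as well. The median absolute difference between the exosome groups was 0.08 on the log2 scale, below the median standard error (SE) of 0.10, against 0.16 for CAF exosomes and 0.18 for hOMF exosomes relative to control. No called gene differed by 1.5 times or more. The 95% interval of the difference lay wholly inside 1.5-fold for 10483 genes (84.1%) and inside 2-fold for 11891 (95.4%). Among the 9343 genes with a mean of at least 10 CPM in the exosome libraries, 9223 (98.7%) had intervals inside 1.5-fold. Estimates of at least 1.5-fold in either direction were found for 160 genes and of at least 2-fold for 22. All of the 22 averaged under 10 CPM, with a median of 1.09 CPM. The most extreme were UTP14C, at 0, 0 and 0.0835 CPM with CAF exosomes and 6.16, 0.175 and 0.764 CPM with hOMF exosomes (edgeR adjusted p = 0.369), and the read-through gene BIVM-ERCC5, at 0, 7.23 and 3.76 CPM and 0, 0 and 0.535 CPM (adjusted p = 0.369). In both genes a single library or a pair sets the group's level and the others are at or near 0. Intervals inside a stricter 1.2-fold were reached for 4260 genes (34.2%), so that at 3 libraries a group a 1.2-fold difference could not be bounded for most genes.

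**Figure D1:**
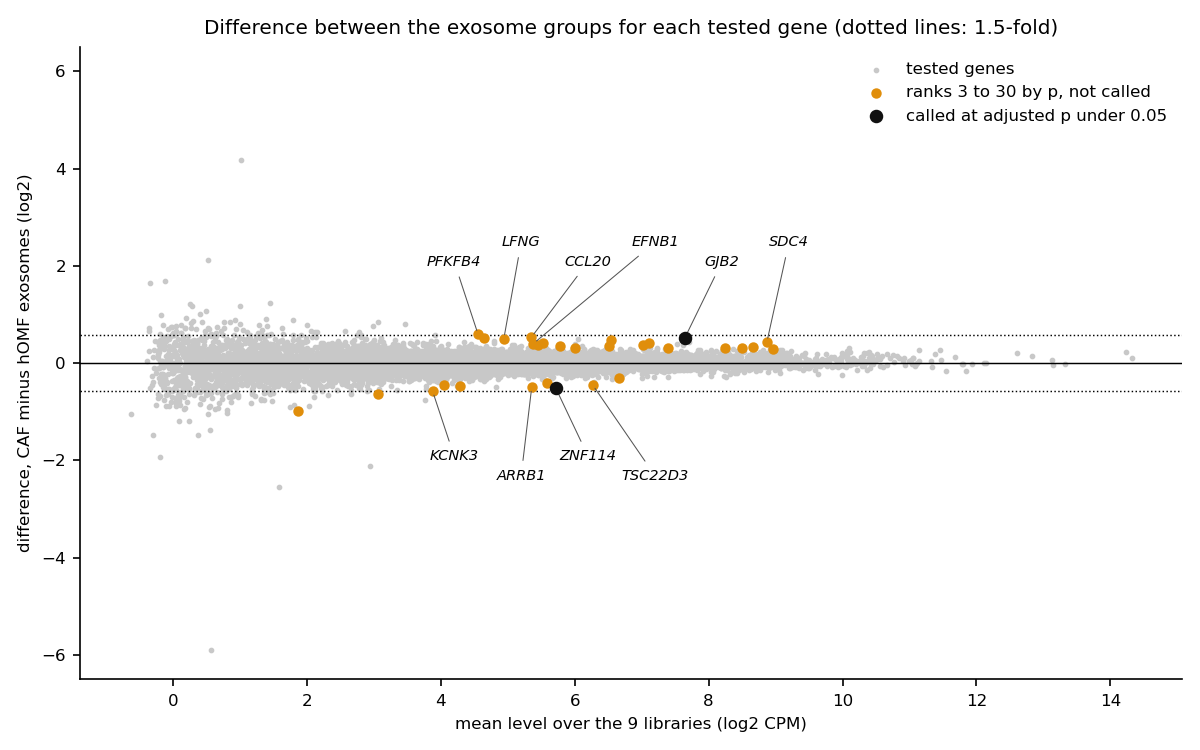
Difference between CAF and hOMF exosomes on the log2 scale (vertical axis) against the mean level over the 9 libraries in log2 CPM (horizontal axis), 1 point per tested gene. GJB2 at 0.52 and ZNF114 at -0.51 are the called genes, orange points are the other genes among the 30 with the smallest p, and large differences appear only at low levels.

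GJB2 (NCBI gene 2706) is a protein-coding gene of the minus strand of chromosome 13, spanning bases 20187463 to 20193010 of GRCh38. It was at 247, 216 and 211 CPM with CAF exosomes, 156, 162 and 151 CPM with hOMF exosomes and 239, 211 and 209 CPM in control. All 3 CAF libraries lay above all 3 hOMF libraries, while the CAF and control values overlapped. The group means were 224 ± 19.4 CPM with CAF exosomes and 156 ± 5.20 CPM with hOMF exosomes (SD, n = 3 each). GJB2 was higher with CAF exosomes by 0.52 on the log2 scale (SE 0.0787, 95% interval 0.35 to 0.69, edgeR adjusted p = 0.0439). Relative to control its estimate was 0.03 with CAF exosomes (adjusted p = 0.822) and -0.49 with hOMF exosomes (adjusted p = 0.000454). In FPKM, which divides by transcript length, the means were 111 with CAF exosomes, 79.0 with hOMF exosomes and 107 in control. By these values GJB2 was below control with hOMF exosomes and near control with CAF exosomes.

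ZNF114 (NCBI gene 163071) spans bases 48270102 to 48287608 of chromosome 19 on the plus strand. It was at 38.5, 40.5 and 35.2 CPM with CAF exosomes, 51.3, 56.4 and 54.7 CPM with hOMF exosomes and 65.3, 62.8 and 66.4 CPM in control. The 3 groups did not overlap, with CAF exosomes lowest and control highest. The fitted difference between the exosome groups was -0.51 (SE 0.0778, 95% interval -0.67 to -0.34, edgeR adjusted p = 0.0439). Relative to control the estimates were -0.77 with CAF exosomes (adjusted p = 2.09e-05) and -0.26 with hOMF exosomes (adjusted p = 0.0204). The value is uncertain in its origin, since the gene's expected count was not whole in 88.9% of the 9 libraries. A count that is not whole marks reads shared with similar genes, but not how many. Exons of ZNF114-AS1 overlap it on the opposite strand, and whether counting used the strand is not stated.

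Both calls rest on all 6 exosome libraries. Leaving out any single CAF or hOMF library ended both, with an adjusted p of GJB2 between 0.0625 and 0.275 and of ZNF114 between 0.0625 and 0.43. Without control replicate 2 both calls ended as well (adjusted p = 0.0979 for both), and without control replicate 1 that of ZNF114 did (0.0582). Leaving out control replicate 3 gave 8 calls. The estimate of GJB2 stayed between 0.45 and 0.57 and that of ZNF114 between -0.55 and -0.45 in these fits.

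The 8 further genes with an adjusted p under 0.1 did not pass the threshold of 0.05 and are described by their values. CCL20 encodes a chemokine that attracts cells bearing its receptor, such as dendritic cells and helper T cells. It was at 46.6, 50.0 and 43.7 CPM with CAF exosomes, 32.9, 34.4 and 30.0 CPM with hOMF exosomes and 42.6, 46.3 and 40.3 CPM in control, a difference of 0.53 between the exosome groups (SE 0.0865, adjusted p = 0.0593). CAF libraries lay above hOMF libraries and overlapped control, as for GJB2. LFNG, whose product adds sugars to Notch receptors and so tunes their response to ligands, was at 31.4, 36.7 and 32.0 CPM with CAF exosomes, 23.7, 23.0 and 24.2 CPM with hOMF exosomes and 34.8, 34.5 and 34.9 CPM in control (0.50, SE 0.0844, adjusted p = 0.0674). Here too only the hOMF libraries stood apart from the other groups. PFKFB4, an enzyme gene that sets the level of an activator of glycolysis, was at 24.9, 26.7 and 22.4 CPM with CAF exosomes, 16.6, 17.3 and 15.4 CPM with hOMF exosomes and 32.2, 30.4 and 25.1 CPM in control (0.59, SE 0.110, adjusted p = 0.0948). Its expected count was fractional in every library (100%) and exons of UCN2 overlap it on the same strand, so its level is uncertain.

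SDC4 encodes syndecan-4, a heparan sulfate proteoglycan of the cell surface that also takes part in exosome formation. It was at 502, 464 and 422 CPM with CAF exosomes, 347, 335 and 349.7 CPM with hOMF exosomes and 633, 613 and 544 CPM in control (0.43, SE 0.0789, adjusted p = 0.0948). Its 3 groups did not overlap, and CAF exosomes lay between hOMF exosomes and control. EFNB1, the gene of an ephrin that signals between touching cells, was at 45.7, 50.7 and 50.1 CPM with CAF exosomes, 38.4, 37.2 and 35.5 CPM with hOMF exosomes and 39.9, 37.9 and 38.9 CPM in control (0.40, SE 0.0760, adjusted p = 0.0948). For this gene hOMF exosomes overlapped control and the CAF libraries stood above both.

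TSC22D3, the glucocorticoid-induced leucine zipper gene, was at 77.3, 78.1 and 81.9 CPM with CAF exosomes, 113, 104 and 107 CPM with hOMF exosomes and 48.0, 44.3 and 37.7 CPM in control (-0.45, SE 0.0808, adjusted p = 0.0948). Both exosome groups lay above control without overlap, by 0.87 with CAF and 1.32 with hOMF exosomes, and exons of NCBP2L overlap it on the opposite strand. ARRB1, which encodes a beta-arrestin that ends signalling of G protein-coupled receptors, was at 30.2, 30.7 and 31.9 CPM with CAF exosomes, 38.3, 46.2 and 46.5 CPM with hOMF exosomes and 43.9, 48.5 and 51.1 CPM in control (-0.50, SE 0.0915, adjusted p = 0.0948). KCNK3, a potassium leak channel gene, was at 10.3, 10.8 and 10.4 CPM with CAF exosomes, 15.4, 17.6 and 14.3 CPM with hOMF exosomes and 16.5, 18.1 and 17.3 CPM in control (-0.58, SE 0.109, adjusted p = 0.0948). In ARRB1 and KCNK3 the CAF libraries lay below both other groups, and hOMF exosomes overlapped control.

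**Figure D2:**
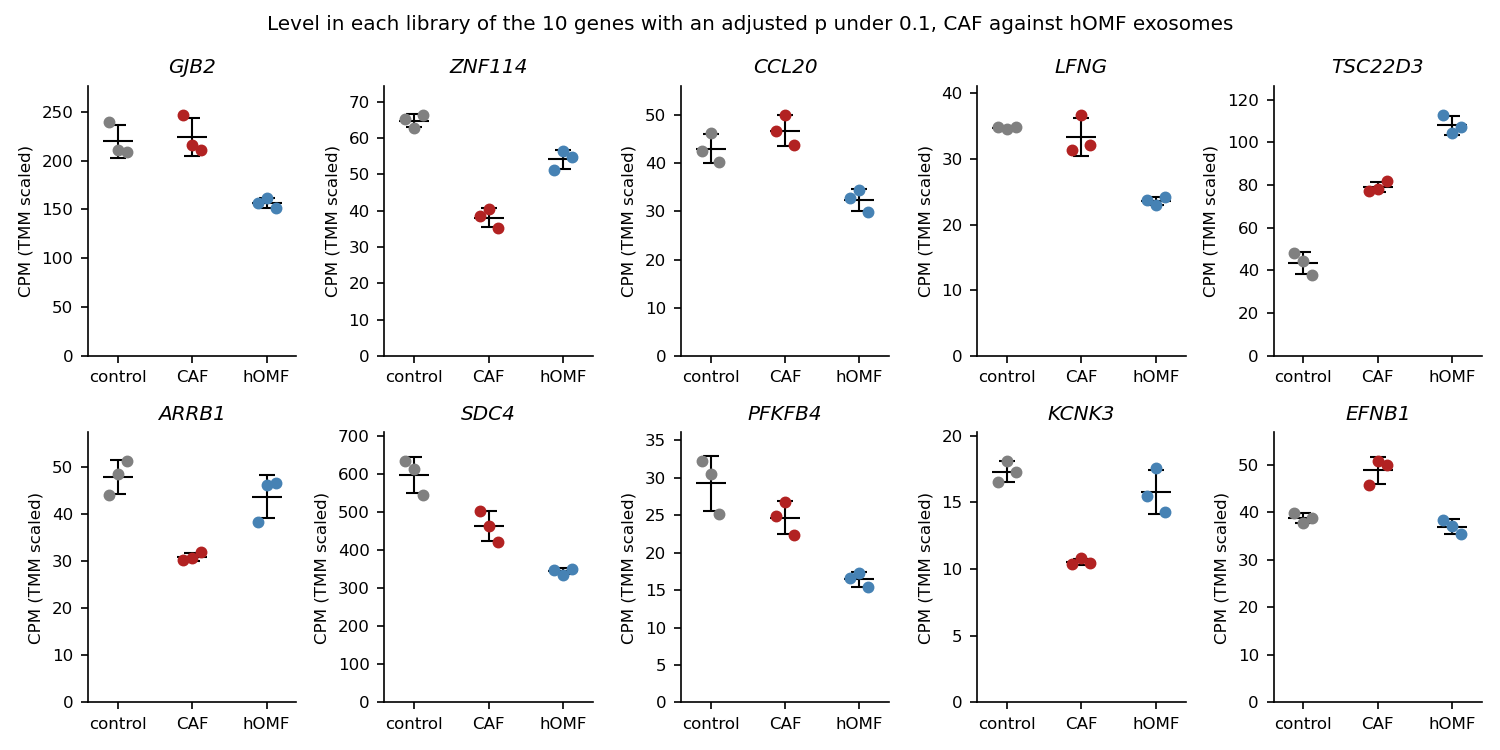
Level in each library (points) with the mean and SD (bars, n = 3) in TMM-scaled CPM for control, CAF exosome and hOMF exosome libraries, for the 10 genes with an adjusted p under 0.1. In every panel the CAF and hOMF points are separate, GJB2, CCL20 and LFNG have CAF points at the control level, and ARRB1, KCNK3 and EFNB1 have hOMF points at the control level.

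GJB2, CCL20, LFNG and PFKFB4 share a pattern, a CAF level within 1.2-fold of control and a lower hOMF value, and the bases before their start sites are shown to let the promoters be compared. RefSeq lists a single start for 3 of these 4 genes. The 250 bases before it on the gene's own strand, from GRCh38.p14, are chr13:20192939-20193188 on the minus strand for GJB2, chr2:227813592-227813841 on the plus strand for CCL20 and chr3:48556804-48557053 on the minus strand for PFKFB4. Capitals mark matches on either strand to the GC box GGGCGG, the AP-1 motif TGANTCA or the NF-kB motif (GGG, then NN, then TTTCC), and matches may overlap.
GJB2: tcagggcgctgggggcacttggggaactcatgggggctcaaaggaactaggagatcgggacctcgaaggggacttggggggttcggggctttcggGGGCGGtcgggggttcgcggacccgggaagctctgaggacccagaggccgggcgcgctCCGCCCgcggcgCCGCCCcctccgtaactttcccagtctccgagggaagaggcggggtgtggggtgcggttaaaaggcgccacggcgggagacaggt
CCL20: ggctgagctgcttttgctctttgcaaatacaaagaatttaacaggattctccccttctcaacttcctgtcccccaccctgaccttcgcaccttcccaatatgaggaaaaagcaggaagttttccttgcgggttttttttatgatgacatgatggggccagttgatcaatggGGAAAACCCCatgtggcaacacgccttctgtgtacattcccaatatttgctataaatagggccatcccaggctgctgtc
PFKFB4: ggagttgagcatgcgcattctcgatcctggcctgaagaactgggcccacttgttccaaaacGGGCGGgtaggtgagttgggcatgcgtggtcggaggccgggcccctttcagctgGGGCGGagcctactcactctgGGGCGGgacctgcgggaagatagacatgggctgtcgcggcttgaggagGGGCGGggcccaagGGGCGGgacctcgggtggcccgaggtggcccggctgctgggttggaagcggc
The windows hold 70.0% G and C in GJB2, 68.0% in PFKFB4 and 46.8% in CCL20. GC boxes matched 3 times in GJB2, 5 times in PFKFB4 and 0 times in CCL20, and 42.6% of all 35116 RefSeq windows of this length hold at least 1. The NF-kB motif matched once in CCL20 and in neither of the others, against 1.73% of all windows. The AP-1 motif, in 6.57% of all windows, matched in none of the 3. No motif matched in all 3 genes, and a match is a string of letters, not a measured site. The windows lie partly or wholly within the span GENCODE gives the gene, so other transcripts start further upstream.

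The 30 genes with the smallest p were 2 called genes and 28 that were not called, 20 with a CAF estimate above hOMF and 10 below. In all 30 the CAF and hOMF libraries did not overlap, which the choice by p favours, while 1714 of the tested genes (13.7%) were separated in this way, 892 with CAF above (7.15%) and 822 with CAF below (6.59%). A level was called near control when its fitted difference from control was under 1.2-fold and that of the other exosome group was not. Both differences from control share the same 3 control libraries. By this rule CAF exosomes were near control in 13 of the 30 genes and hOMF exosomes in 7, with 9 genes away from control on the same side in both groups and 1 near control in both. Being near control did not always mean overlap with the control libraries. The hOMF libraries of ZNF114 (-0.26) and FBXO32 (-0.24), and the CAF libraries of MAT2A (-0.08), lay wholly below them. With both groups at least 1.2-fold from control, 0 of the 30 lay on opposite sides of it (2 with a limit of 1.1-fold), though nearer to control the estimates of some genes, such as CCL20 and TAF9B, differed in sign. Over all tested genes the shares were 10.5% for CAF exosomes and 6.74% for hOMF exosomes. The CAF level was the nearer of the 2 to control in 21 of the 30 genes (17 of the 20 with CAF above hOMF, 4 of the 10 with CAF below), against 55.0% of all tested genes. The split by direction among these 30 was not that of the 947 genes with an unadjusted p under 0.05, in which the CAF level was the nearer for 65.7% of the genes with CAF above and 70.7% of those with CAF below.

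The genes with CAF above hOMF not yet described are given by the kind of protein they encode, a grouping made after their values were seen and not compared with all genes. PTHLH, the gene of parathyroid hormone-related protein, was at 129, 126 and 122 CPM with CAF exosomes and 100.3, 100.4 and 90.1 CPM with hOMF exosomes, against 174, 169 and 154 CPM in control (0.37, SE 0.0736). INHBA, a subunit of activin, was at 139, 141 and 122 CPM with CAF exosomes, 116, 95.4 and 91.3 CPM with hOMF exosomes and 189, 184 and 170.4 CPM in control (0.41, SE 0.0916). FST, whose product follistatin binds and blocks activin, was at 23.5, 27.1 and 23.8 CPM with CAF exosomes, 17.8, 15.6 and 18.8 CPM with hOMF exosomes and 36.9, 32.1 and 28.7 CPM in control (0.51, SE 0.112). In these genes, as in EDN1 (endothelin, 0.41, SE 0.0957) and STC2 (stanniocalcin, 0.30, SE 0.0693), control was highest, CAF exosomes lay between and hOMF exosomes were lowest. Their adjusted p lay between 0.122 and 0.257. CFB, complement factor B, was at 333, 309 and 334 CPM with CAF exosomes, 266, 255 and 266 CPM with hOMF exosomes and 325, 342 and 307 CPM in control (0.31, SE 0.0681, adjusted p = 0.197), with CAF exosomes overlapping control. Exons of C2 overlap CFB on the same strand.

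The others of this direction encode enzymes, transporters and membrane proteins. MAT2A, which makes the methyl donor S-adenosylmethionine, was at 179, 178 and 169 CPM with CAF exosomes, 142, 145 and 137 CPM with hOMF exosomes and 183, 186 and 187 CPM in control (0.31, SE 0.0640). CD81, a tetraspanin found on exosomes themselves, was at 415, 428 and 380.0 CPM with CAF exosomes, 333, 323 and 329.5 CPM with hOMF exosomes and 357, 339 and 335 CPM in control (0.31, SE 0.0678). GALNT1, an enzyme that starts O-linked glycosylation, was at 67.4, 59.8 and 63.4 CPM with CAF exosomes, 50.4, 47.5 and 51.4 CPM with hOMF exosomes and 52.1, 49.0 and 51.0 CPM in control (0.35, SE 0.0738). In CD81 and GALNT1 the CAF libraries lay above both other groups. CSRP1, a LIM domain protein of the actin cytoskeleton (0.48), SLC43A3, a nucleobase transporter (0.33), SLC7A6, an amino acid transporter (0.36), TLCD3A (0.35) and TMEM185B (0.30) complete the 20. Of these 5, SLC43A3 lay below control in both exosome groups, and the other 4 had CAF exosomes within 1.2-fold of control. No gene of these 8 had an adjusted p under 0.1, the range being 0.104 to 0.257.

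Of the 10 genes with CAF below hOMF, 3 had CAF exosomes near control and the hOMF value above it. TAF9B, a subunit of the general transcription factor TFIID, was at 2.41, 2.64 and 2.50 CPM with CAF exosomes, 5.20, 4.28 and 5.50 CPM with hOMF exosomes and 2.45, 3.16 and 2.95 CPM in control (-0.99, SE 0.198, adjusted p = 0.124). ETFDH, which passes electrons from fatty acid oxidation to the respiratory chain, was at 6.96, 6.30 and 6.68 CPM, 9.28, 10.8 and 10.9 CPM and 6.82, 6.68 and 8.69 CPM in the same order (-0.64, SE 0.142, adjusted p = 0.197). The estimates of TAF9B and ETFDH were the lowest of the 30, at low levels. Exons of PPID and C4orf46 overlap ETFDH on the opposite strand. ADGRF5, an adhesion receptor gene, had -0.45 (SE 0.104). FBXO32, a ubiquitin ligase subunit known as a FOXO target, was at 85.5, 82.6 and 76.9 CPM with CAF exosomes, 97.2, 104 and 103 CPM with hOMF exosomes and 123, 121 and 115 CPM in control (-0.31, SE 0.0701, adjusted p = 0.199). RDH10, which oxidises retinol on the way to retinoic acid, was at 15.4, 15.2 and 12.1 CPM with CAF exosomes, 18.997, 19.8 and 20.0 CPM with hOMF exosomes and 23.3, 24.8 and 25.2 CPM in control (-0.46, SE 0.105, adjusted p = 0.207). In FBXO32 and RDH10 CAF exosomes were lowest and control highest. ZBED6CL had -0.41 (SE 0.0902).

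**Figure D3:**
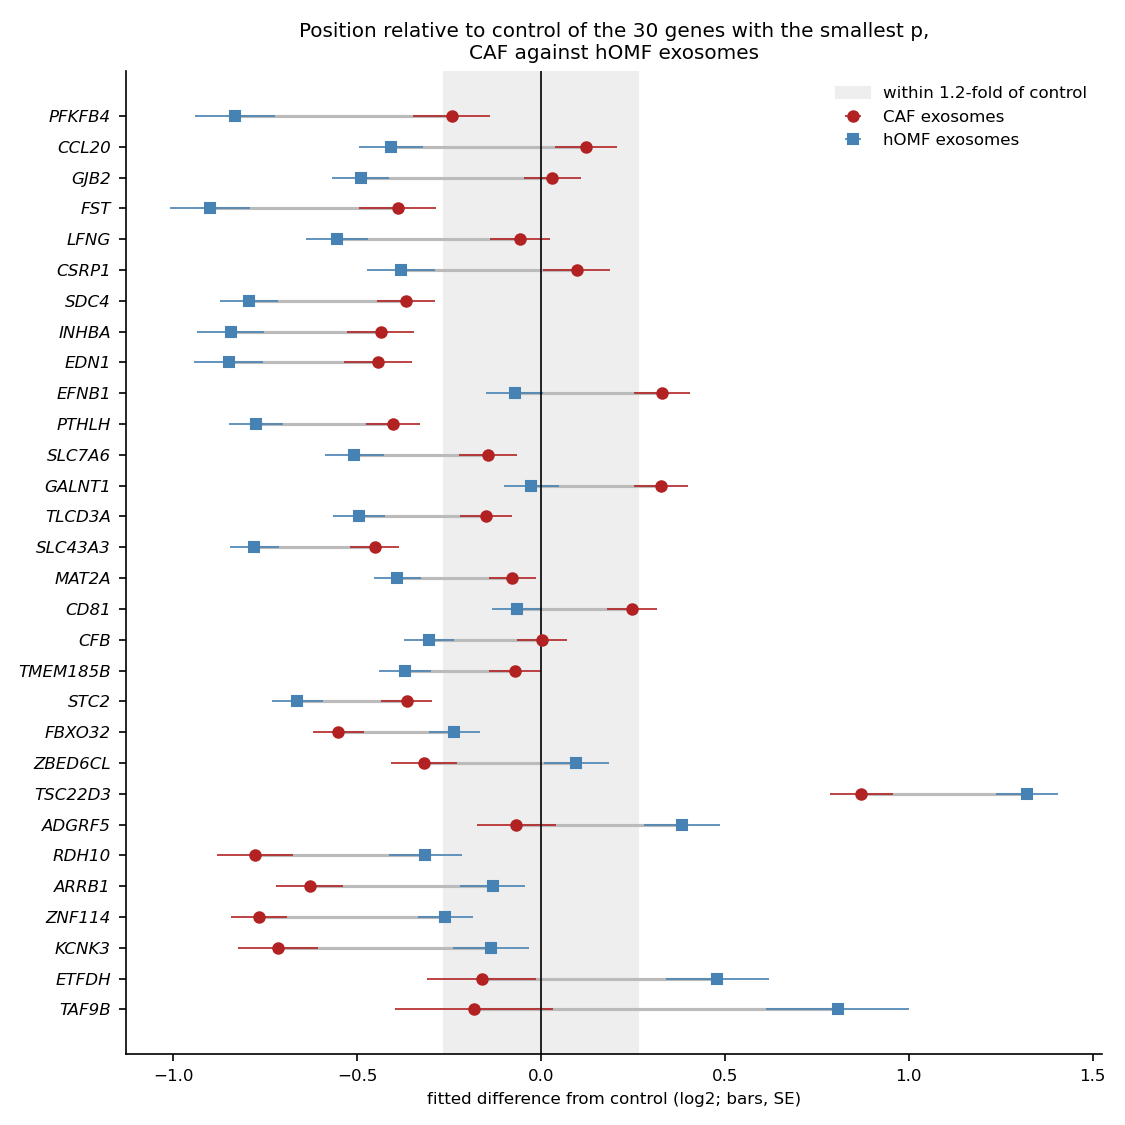
Fitted difference from control on the log2 scale (horizontal axis, bars SE) with CAF exosomes (circles) and hOMF exosomes (squares) for the 30 genes with the smallest p, ordered by the difference between the groups. In 13 genes only the CAF mark, and in 7 only the hOMF mark, falls inside the shaded range within 1.2-fold of control, while TSC22D3 lies far above control in both groups.

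The other connexin genes were listed after the values of GJB2 had been seen, so their counts support nothing about the family. Of 9 connexin genes tested, GJB2 alone was called, and all 9 estimates were above 0 with a median of 0.30, against a median of -0.0043 over all tested genes. GJB5 was at 27.02, 26.9 and 31.7 CPM with CAF exosomes, 23.5, 23.2 and 23.1 CPM with hOMF exosomes and 27.2, 28.5 and 26.5 CPM in control (0.30, SE 0.0886, adjusted p = 0.369). Its exosome groups did not overlap, and CAF exosomes overlapped control. GJA1, which encodes the most widespread connexin of human tissues, was at 16.4, 14.9 and 15.6 CPM with CAF exosomes and 12.5, 12.4 and 16.7 CPM with hOMF exosomes, which overlapped (0.17, SE 0.123). By FPKM, GJB2 was the most abundant connexin with CAF exosomes (111), against 26.3 for GJB5.

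Apart from GJB2, no tested member of any gene list, markers included, was called by edgeR, so the lists described here are given by their counts at an unadjusted p under 0.05 and their medians. Over all tested genes 4.23% reached that p with CAF above and 3.37% with CAF below, and list counts are to be read against these shares. Of 33 tested NF-kB targets and cytokines, 8 had an unadjusted p under 0.05 with CAF above hOMF and 0 with CAF below, and the median was 0.04 (-0.03 without hOMF exosome replicate 3). After CCL20 they were led by IL32, a cytokine gene, at 88.0, 93.5 and 98.7 CPM with CAF exosomes, 84.7, 77.4 and 68.4 CPM with hOMF exosomes and 91.4, 95.8 and 94.1 CPM in control (0.28, SE 0.0811, adjusted p = 0.367). CXCL8, the gene of the neutrophil chemokine IL-8, was at 269.5, 258 and 244 CPM with CAF exosomes, 226, 214 and 210.1 CPM with hOMF exosomes and 341, 378 and 341 CPM in control (0.25, SE 0.0710, adjusted p = 0.367). Both exosome groups of CXCL8 lay below control, CAF exosomes less so. CXCL1 had 0.26 (SE 0.0927), TNFAIP3, an inhibitor of NF-kB signalling, 0.20 (SE 0.0704), ICAM1 0.18 (SE 0.0691), CXCL16 0.19 (SE 0.0784) and TNF 0.23 (SE 0.105). Over the 33 genes of this list 19 estimates were above 0 and 14 below, the lowest that of CXCL10 (-0.26). Of 17 acute phase and complement genes, 5 reached that p with CAF above and 0 with CAF below, and the median was 0.13. C1R, a protease that starts the classical complement pathway, was at 341, 311 and 339 CPM with CAF exosomes and 289, 278 and 269.8 CPM with hOMF exosomes (0.24, SE 0.0775), without overlap.

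Antigen presentation was bounded closely. Of 15 tested genes of MHC class II presentation none reached an unadjusted p under 0.05, the median was 0.03, and 13 had 95% intervals inside 1.5-fold. CD74, the invariant chain, was at 1358, 1478 and 1369.6 CPM with CAF exosomes and 1388, 1298 and 1129 CPM with hOMF exosomes (0.14, interval -0.03 to 0.31). HLA-DRA was at 149.7, 148 and 141 CPM with CAF exosomes and 142, 136 and 130.3 CPM with hOMF exosomes (0.10, interval -0.04 to 0.25). In both genes the exosome groups overlapped. CIITA, the class II transactivator, had 0.07 (interval -0.16 to 0.31). All 19 genes of MHC class I and peptide loading had intervals inside 1.5-fold. Of these, 2 reached an unadjusted p under 0.05 with CAF above and 1 with CAF below. Estimates ranged from -0.19 (PSMB8) to 0.22 (TAPBPL), and B2M, the light chain of class I molecules, had 0.04 (interval -0.13 to 0.20). Of 36 immune checkpoint, NK ligand and costimulatory genes, 3 reached an unadjusted p under 0.05 with CAF above and 1 with CAF below, against 4.23% and 3.37% of all tested genes, and 28 had intervals inside 1.5-fold. CD276 (B7-H3), a checkpoint ligand, was at 304, 295 and 288 CPM with CAF exosomes and 269.9, 256 and 249 CPM with hOMF exosomes (0.20, SE 0.0681, adjusted p = 0.489), and BTN3A2, a butyrophilin, at 55.5, 57.1 and 56.2 CPM and 67.3, 65.7 and 64.6 CPM (-0.23, SE 0.0667, adjusted p = 0.369). The expected count of BTN3A2 was fractional in every library, so some of its reads may belong to its close relatives. Of 39 interferon-stimulated genes, 5 lay above and 2 below at that p, with a median of 0.01. IFITM3, an antiviral membrane protein gene whose expected count was fractional in 88.9% of the libraries, had 0.31 (SE 0.0774).

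**Figure D4:**
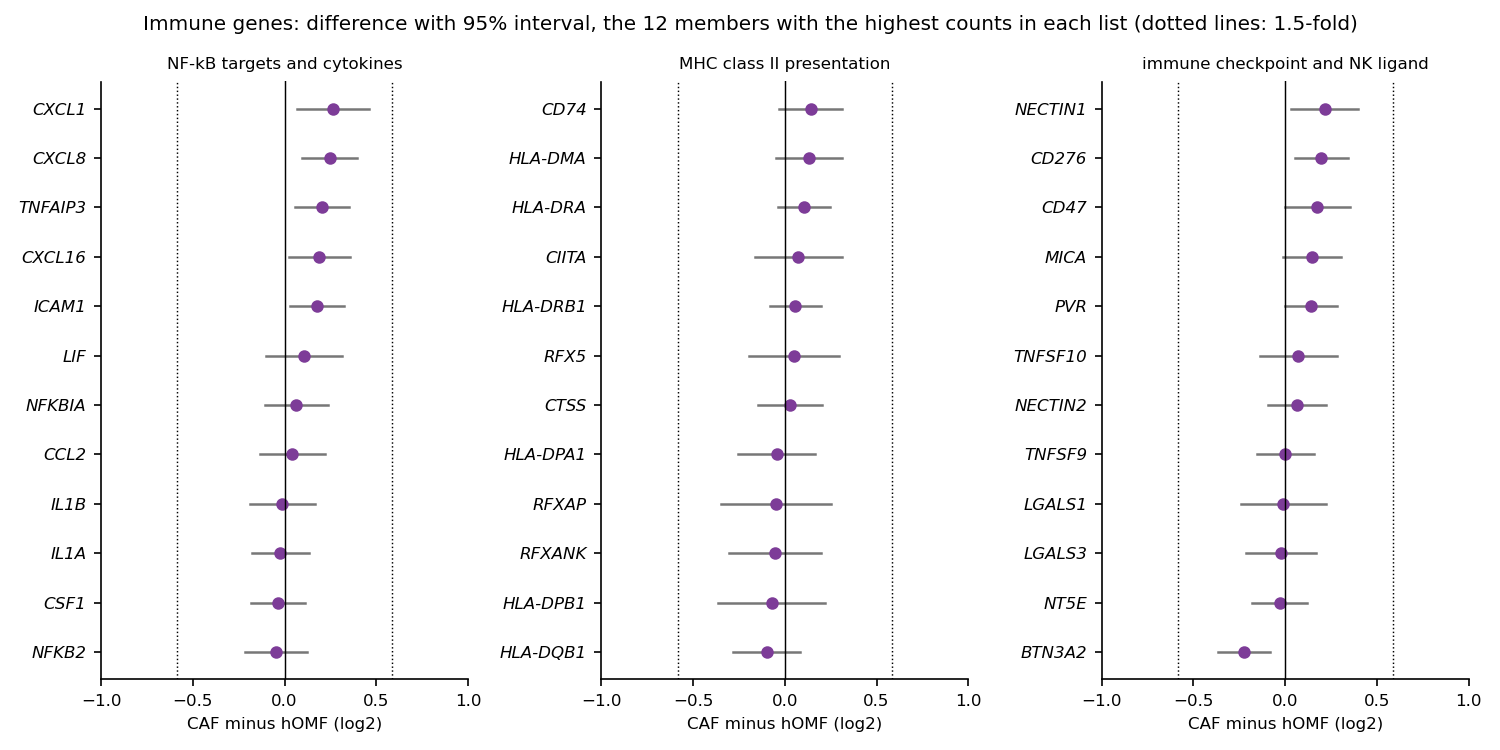
Difference between CAF and hOMF exosomes on the log2 scale (points) with the 95% interval (bars). Shown are the 12 members with the highest mean CPM in each of 3 immune lists, NF-kB targets, MHC class II and checkpoint genes. Members with lower counts, CCL20 among them, are outside the plot. The intervals of all plotted genes stay inside the dotted lines at 1.5-fold, and in the panel of NF-kB targets CXCL1 and CXCL8 lie furthest to the right.

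Cell cycle lists lay on opposite sides of 0. Of 45 S phase and DNA replication genes, 36 estimates were above 0 with a median of 0.10, and 4 reached an unadjusted p under 0.05, all with CAF above. MCM5, a subunit of the replicative helicase, was at 60.5, 67.5 and 63.4 CPM with CAF exosomes, 50.2, 51.6 and 53.2 CPM with hOMF exosomes and 67.0, 81.2 and 88.8 CPM in control (0.30, SE 0.0933, adjusted p = 0.395). UHRF1, which maintains DNA methylation at replication, was at 15.0, 22.05 and 16.4 CPM, 13.01, 13.99 and 12.5 CPM and 21.5, 28.1 and 39.6 CPM in the same order (0.44, SE 0.194). Both genes had estimates below control in both exosome groups, and their CAF values overlapped control. Of 45 genes of G2 and mitosis, 37 estimates were below 0 with a median of -0.09, and 4 reached that p, all with CAF below. CENPE, a kinetochore motor, was at 3.66, 3.49 and 3.17 CPM with CAF exosomes, 5.29, 5.68 and 5.27 CPM with hOMF exosomes and 5.64, 5.24 and 5.90 CPM in control (-0.65, SE 0.167, adjusted p = 0.298). KIF20A, a motor needed for cytokinesis, was at 21.7, 23.7 and 20.9 CPM, 26.5, 25.9 and 30.3 CPM and 24.5, 25.7 and 28.2 CPM in the same order (-0.32, SE 0.0955, adjusted p = 0.369). Across the 24 processing alternatives the median of the replication list ranged from 0.07 to 0.18 and that of the mitosis list from -0.13 to -0.04.

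Genes of the pathways around INHBA and SDC4 were mixed in direction. Of 36 genes of TGF-beta and activin signalling, 4 reached an unadjusted p under 0.05 with CAF above and 1 with CAF below, and the median was 0.02. The ligand genes TGFB1 (0.14, SE 0.0759) and TGFB2 (-0.32, SE 0.122) had estimates of opposite sign. Of 38 exosome formation genes, 6 lay above and 1 below at that p, with 19 estimates on either side of 0. Besides SDC4 and CD81, the tetraspanin gene CD151 was at 509, 598 and 507 CPM with CAF exosomes and 479, 444 and 392 CPM with hOMF exosomes (0.30, SE 0.0858). The exosome markers CD9 (0.19, SE 0.0923) and CD63 (0.16, SE 0.0838) had smaller estimates.

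Lists of protein synthesis and stress had medians within 0.1 of 0. For the unfolded protein response 23 of 27 estimates were above 0 (median 0.09), 6 reached an unadjusted p under 0.05 and all 27 intervals lay inside 1.5-fold. CALR, a chaperone of the endoplasmic reticulum, was at 1428, 1310.4 and 1352 CPM with CAF exosomes and 1255, 1169 and 1097 CPM with hOMF exosomes (0.22, SE 0.0701). Genes of amino acid supply and the integrated stress response had 30 of 36 estimates above 0 (median 0.08), 9 with that p above and 2 below. ATF5, a transcription factor of this response, was at 12.3, 12.3 and 12.6 CPM with CAF exosomes, 8.85, 9.79 and 9.63 CPM with hOMF exosomes and 18.5, 17.7 and 17.9 CPM in control (0.40, SE 0.105, adjusted p = 0.305), and MIR4751, NUP62 and IL4I1 overlap its exons. Ribosome biogenesis genes had 31 of 35 estimates above 0 (median 0.08), and cytosolic ribosomal protein genes 17 of 79 (median -0.04). The median of the ribosomal protein list was 0.02 without CAF exosome replicate 1.

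Lipid, hypoxia and epithelial lists were described in the same way. Of 29 lipid handling and fatty acid synthesis genes, 1 reached an unadjusted p under 0.05 and the median was -0.01. FASN, the fatty acid synthase, was at 3866, 4014 and 4465 CPM with CAF exosomes, 4651, 4715 and 4527 CPM with hOMF exosomes and 2060.0, 2492 and 2459 CPM in control (-0.17, interval -0.34 to 0.00), with every CAF library below every hOMF library. Of 39 hypoxia and glycolysis genes, 5 reached that p, all with CAF above, and the median was 0.03. CA9, a carbonic anhydrase and a standard marker of hypoxia, was at 227, 205 and 217 CPM with CAF exosomes, 173, 169 and 141 CPM with hOMF exosomes and 272, 268 and 205 CPM in control (0.43, SE 0.103, adjusted p = 0.276), with CAF exosomes overlapping control. Of 24 keratinocyte differentiation genes, 4 lay above and 3 below at that p. PADI3, a peptidylarginine deiminase of cornifying cells, was at 302, 310.0 and 322 CPM with CAF exosomes, 384, 375 and 369 CPM with hOMF exosomes and 204, 229 and 204 CPM in control (-0.27, SE 0.0681, adjusted p = 0.285), without overlap between the 3 groups. SLPI, an epithelial protease inhibitor, had 0.27 (SE 0.0808).

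Squamous identity was clear in every library. All 14 squamous epithelium markers were tested, all 14 estimates were above 0 (median 0.10), and 4 reached an unadjusted p under 0.05. Their summed level was 9931 to 10156 CPM with CAF exosomes, 9035 to 9675 CPM with hOMF exosomes and 8063 to 9581 CPM in control, so that the exosome groups did not overlap. KRT14, a basal keratin, was at 20.3, 23.1 and 19.9 CPM with CAF exosomes, 16.7, 14.4 and 11.5 CPM with hOMF exosomes and a mean of 9.64 ± 3.17 CPM in control (SD, n = 3; 0.57, SE 0.170, adjusted p = 0.369). KRT5, its partner, was at 1239.9, 1192 and 1264 CPM with CAF exosomes and 1074, 1047 and 1064 CPM with hOMF exosomes (0.22, SE 0.0725, adjusted p = 0.482). The expected count of KRT5 was fractional in every library. For both keratins the CAF libraries lay above both other groups, and for KRT14 hOMF exosomes overlapped control. Of 21 tested genes in the wider list of basal keratinocyte and squamous identity, 18 estimates were above 0 and 3 below (median 0.11). In that list 4 genes reached an unadjusted p under 0.05 with CAF above and 1 with CAF below. The lowest estimate was that of the keratin gene KRT15 (-0.30).

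For markers of other cell types the summed levels of the exosome groups overlapped. Of 12 tested fibroblast markers none reached an unadjusted p under 0.05, and 5 estimates were above 0 (median -0.10, or 0.03 without CAF exosome replicate 2). The fibroblast list, 18 of 20 genes in the table, summed to 852 to 895 CPM with CAF exosomes, 801 to 861 CPM with hOMF exosomes and 569 to 700.5 CPM in control. SPARC made up most of it, at 739.9, 694 and 703 CPM with CAF exosomes and 680.2, 626 and 643 CPM with hOMF exosomes (0.13, interval -0.05 to 0.32). COL1A1 was at 42.1, 44.1 and 43.6 CPM and 50.5, 40.0 and 39.4 CPM (0.00, interval -0.21 to 0.21). Endothelial markers, 7 of 10 in the table, summed to 32.3 to 36.0 CPM with CAF exosomes and 29.5 to 37.3 CPM with hOMF exosomes. Leukocyte markers, 12 of 15 in the table, summed to 52.8 to 57.5 CPM and 50.1 to 53.4 CPM, with NKG7 and TYROBP at 0 in all 6 exosome libraries. The part of such markers in any difference above was not tested.

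**Figure D5:**
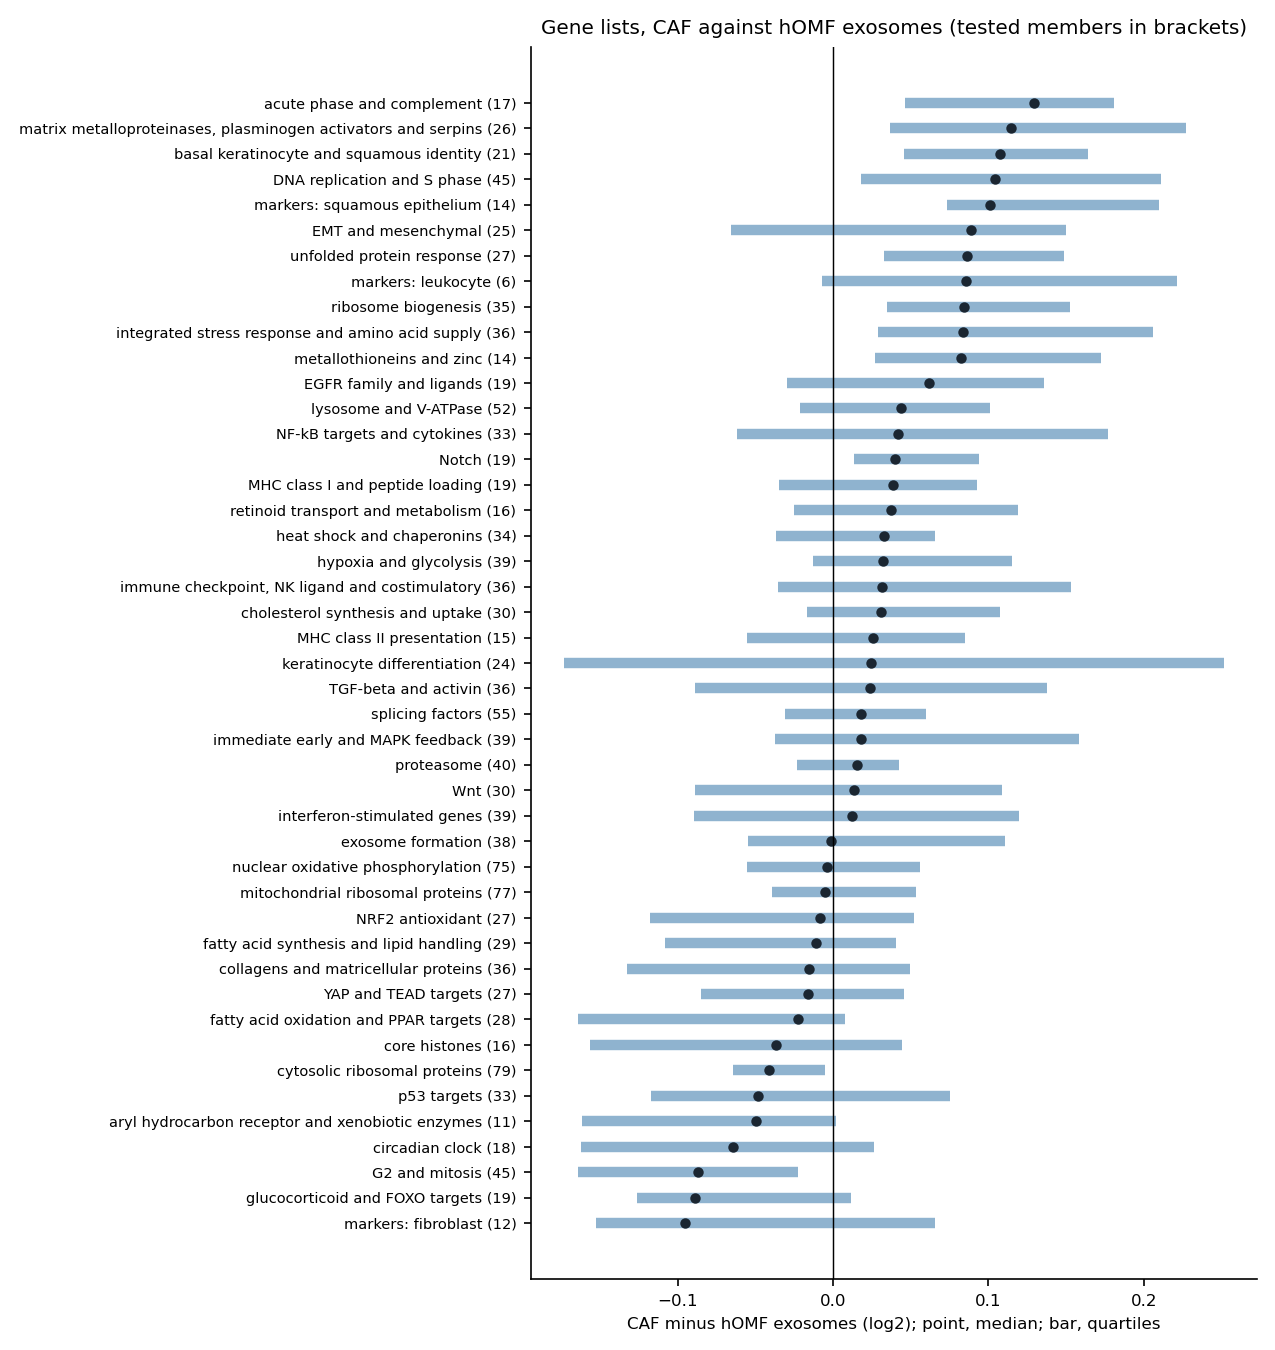
Median (points) and quartiles (bars) of the difference between CAF and hOMF exosomes on the log2 scale over the tested members of each list with at least 5 of them, the connexins left out because they were listed after values were seen. Every median lies between -0.10 and 0.13, around the median of -0.0043 over all tested genes.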

How the data were processed

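Poly(A) RNA of Cal-27 cells was sequenced from 9 libraries, 3 in each of 3 groups set by the labels (CAF exosomes, hOMF exosomes, control), with paired-end reads from libraries that mark strand, per the labels' protocols. The submitters' processing notes name Bowtie2 2.2.5, RSEM 1.2.8 and the build mm10, a mouse genome, although the deposited gene identifiers and symbols are human. The deposited expected counts are RSEM-type estimates that share ambiguous reads between genes, and 90.5% to 92.0% of values per library were whole within 0.001. The FPKM values deposited by the authors were used for levels between genes and in an alternative test, and the deposited TPM values were not used.

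Expected counts were rounded to whole numbers, and 12470 of 16366 genes passed filterByExpr (minimum count 10, minimum total 15). The remaining genes were left out of the tests. edgeR 4.0.16 in R 4.3.3 fitted all 9 libraries with TMM scaling and group as the only term, so that control added to the estimate of the spread. The quasi-likelihood test was two-sided with Benjamini-Hochberg adjustment over all tested genes and a threshold of 0.05. CPM values are TMM-scaled, and 95% intervals use 6 residual and 10.0 prior degrees of freedom. Fold changes at totals of 11185672 to 12779101 counts per library are least precise for genes under 10 CPM.

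The text names the 30 genes with the smallest p, because only 2 were called, and, from each list, the 2 lowest p at most. Further list members and the most extreme folds were chosen after their values were seen. The comparison and the lists were chosen with earlier results of these data known, and the connexins were listed after the values of GJB2. Positions are from GENCODE v29 and promoters from RefSeq, both GRCh38. Exon overlaps with other genes are named for some genes only. Others described here have them too, such as SLC43A3 (AP000781.2, same strand) and SLC7A6 (SLC7A6OS, opposite strand). Alternatives covered normalization, DESeq2 1.42.0, limma 3.58.1 (voom, and log2 of FPKM plus 1 or 0.1), filters, a replicate block, GC content with transcript length, the exosome libraries alone and leaving out each library. Tables and sequences were handled in Python 3.11.15, and figures were drawn with matplotlib 3.10.9.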

Additional observations from a re-analysis of the deposited data

How the results depend on the processing

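The count of 2 called genes moved with most settings. It was 0 with library totals in place of TMM factors (987 genes at an unadjusted p under 0.05), with limma on log2(FPKM + 1) or log2(FPKM + 0.1), with the 6 exosome libraries alone, and with quantile normalization in limma-voom. DESeq2 called 32 genes (25 higher and 7 lower with CAF exosomes), and the fit corrected for GC content and transcript length 19 (12 and 7). The exosome libraries alone with that correction gave 33 (22 and 11). Quantile normalization and the last fit were chosen after seeing the data. Leaving out 1 library gave 0 to 8 calls, 0 without any hOMF library, CAF replicate 1 or 2 or control replicate 2, and 8 without control replicate 3. Without CAF replicate 3 the 1 call was ERV3-1-ZNF117, a read-through gene at low counts. The count stayed within 1.5 times of 2 with DESeq2's size factors, upper quartile factors, limma-voom, both other filters and the replicate block.

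With the replicate block 2 genes were called, GJB2 and CCL20, and ZNF114 was lost (adjusted p = 0.0749). The block with the GC and length correction called 23 (14 higher and 9 lower). Same-numbered libraries deviated together with correlations of -0.154, -0.0511 and 0.0384, so the numbers were not taken to pair the samples.

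The count of called genes at least 1.5-fold apart, 0 in the report, was 2 with the GC and length correction, 2 with the block added and 4 in the exosome libraries alone with it. It ranged from 0 to 1 when 1 library was left out. With near control set at 1.1-fold, the called genes with hOMF exosomes near control fell from 1 to 0, as ZNF114 passed that limit.

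GJB2 was called in 12 of 24 alternatives (0.45 to 0.57, adjusted p from 1.21e-06 to 0.275) and ZNF114 in 10 (-0.55 to -0.45, adjusted p from 0.000139 to 0.43). Of 2520 values of single genes under the alternatives, 2415 kept their direction and side of the threshold, 79 passed it and 26 no longer did. List medians above 0.05 in size kept their sign in all 24 alternatives, other than that of the fibroblast markers, and smaller ones changed sign in up to 11 (exosome formation). Precision is limited by 3 libraries a group, and genes under 10 CPM are bounded least.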

Other observations

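Gene groups not described above gave small values as well. Of 25 epithelial-mesenchymal transition and mesenchymal genes, 6 had an unadjusted p under 0.05 with CAF above hOMF and 1 with CAF below (median 0.09). Of 26 genes of matrix metalloproteinases, plasminogen activators and serpins, 3 lay above and 0 below at that p (median 0.11). Of 33 p53 targets, 2 lay above and 5 below (median -0.05). Of 52 lysosome and V-ATPase genes, 4 lay above and 0 below, and the protease gene CTSB was at 3059, 2877 and 2739 CPM with CAF exosomes and 2441, 2456 and 2343 CPM with hOMF exosomes (0.26, SE 0.0732, edgeR adjusted p = 0.367).

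Among 19 glucocorticoid and FOXO targets, 14 estimates were below 0 (median -0.09), and TSC22D3 and SGK1 were the members with an unadjusted p under 0.05. FBXO32, a FOXO target described above (-0.31), was not in this list. SGK1, a kinase gene induced by glucocorticoids, was at 338, 310.4 and 315 CPM with CAF exosomes and 249.9, 267 and 271 CPM with hOMF exosomes (0.29, SE 0.0749), opposite in sign to TSC22D3. IFI27, an interferon-stimulated gene, was at 3.48, 4.60 and 3.92 CPM with CAF exosomes, 2.00, 2.27 and 2.22 CPM with hOMF exosomes and a mean of 3.81 ± 0.552 CPM in control (SD, n = 3; 0.88, SE 0.214, adjusted p = 0.276). Among 39 immediate early and MAPK feedback genes, the phosphatase gene DUSP10 had -0.35 (SE 0.0941, adjusted p = 0.329) and MYC 0.26 (SE 0.0907, adjusted p = 0.482). None of these genes was called.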
